A study of Homo sapiens with 192 samples.

Results

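The laminin chain genes examined were LAMA1, LAMA3, LAMA4, LAMA5, LAMB1, LAMB2, LAMB3 and LAMC1, 8 of the 58243 genes in the deposited tables, taken as a gene family by name, with no threshold on a measured value. HT29, HCT116, LS174T and LS513, all human colorectal cancer (CRC) cell lines, were sequenced after 2D and after 3D growth, with 3 libraries in each of the 8 groups. The 24 libraries held 18723942 to 34277421 assigned reads (median 30777613), and all 8 laminin genes were among the 19387 genes that passed the filter on low counts, LAMA1 with only 98 reads over all libraries. By their labels the groups differ in line and growth, and no treatment or engineered genetic change is named for any of them. The study divides the lines into microsatellite stable and microsatellite instable. HCT116 was kept in McCoy medium and the other lines in DMEM, so line and medium cannot be told apart in comparisons that include HCT116. How the 3D cultures used for RNA were made was not given in the sources used here; low attachment plates were described for the spheroid growth assay of the study.

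Laminins are large secreted glycoproteins built from an alpha, a beta and a gamma chain that join along a coiled coil. They are part of the sheet that underlies epithelia, the basement membrane, and are bound there by integrins, dystroglycan, syndecans and BCAM. In the intestine, the alpha 5 chain is characteristic of the mature epithelial basement membrane, the alpha 1 chain of early development, and the alpha 4 chain of vessels and mesenchyme. The alpha 3 and beta 3 chains, the products of LAMA3 and LAMB3, belong to the laminin that anchors epithelial cells through hemidesmosomes.

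LAMA3, LAMB3 and LAMB2 were the laminin genes with higher RNA in 3D in both LS513 and HCT116, while LAMB1 went in opposite directions in these lines. The promoter windows of these genes in RefSeq (GRCh38.p14, 300 bases that end shortly after a transcription start, written on the strand of the gene) are shown. In HT29 and LS174T, LAMA3 was called lower in 3D while LAMB3 and LAMB2 were not called. A link between the windows and these changes was not tested. Capitals mark the GC box GGGCGG and the AP-1 element TGANTCA, searched on both strands, where CCGCCC is the GC box read on the other strand and neighbouring matches may overlap.
LAMA3 start inside the gene, chr18:23872770-23873069, plus strand: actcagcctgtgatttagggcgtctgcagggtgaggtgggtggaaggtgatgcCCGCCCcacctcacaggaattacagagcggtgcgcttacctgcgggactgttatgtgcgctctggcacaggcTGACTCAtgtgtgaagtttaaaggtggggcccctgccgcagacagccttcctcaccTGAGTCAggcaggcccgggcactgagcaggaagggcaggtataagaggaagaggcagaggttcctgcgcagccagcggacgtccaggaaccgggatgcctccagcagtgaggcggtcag
LAMB3 upstream start, chr1:209652376-209652675, minus strand: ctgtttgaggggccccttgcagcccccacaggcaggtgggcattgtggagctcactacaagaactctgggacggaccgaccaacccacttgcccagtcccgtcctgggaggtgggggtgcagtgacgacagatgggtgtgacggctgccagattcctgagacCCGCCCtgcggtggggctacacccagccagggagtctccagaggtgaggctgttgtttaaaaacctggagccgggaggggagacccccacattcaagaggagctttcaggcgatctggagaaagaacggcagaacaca
LAMB3 downstream start, chr1:209651325-209651624, minus strand: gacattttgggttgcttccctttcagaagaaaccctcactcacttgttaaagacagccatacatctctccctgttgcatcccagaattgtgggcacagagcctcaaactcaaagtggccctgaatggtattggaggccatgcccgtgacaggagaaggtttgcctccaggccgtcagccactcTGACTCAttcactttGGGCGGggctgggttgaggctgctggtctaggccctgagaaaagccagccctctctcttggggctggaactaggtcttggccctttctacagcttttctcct
LAMB2, chr3:49133001-49133300, minus strand: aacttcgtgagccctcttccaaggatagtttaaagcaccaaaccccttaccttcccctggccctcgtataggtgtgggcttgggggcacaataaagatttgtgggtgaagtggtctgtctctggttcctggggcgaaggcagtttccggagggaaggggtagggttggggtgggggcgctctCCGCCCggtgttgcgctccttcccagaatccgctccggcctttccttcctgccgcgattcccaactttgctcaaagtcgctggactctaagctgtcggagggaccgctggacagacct
LAMB1, chr7:108003112-108003411, minus strand: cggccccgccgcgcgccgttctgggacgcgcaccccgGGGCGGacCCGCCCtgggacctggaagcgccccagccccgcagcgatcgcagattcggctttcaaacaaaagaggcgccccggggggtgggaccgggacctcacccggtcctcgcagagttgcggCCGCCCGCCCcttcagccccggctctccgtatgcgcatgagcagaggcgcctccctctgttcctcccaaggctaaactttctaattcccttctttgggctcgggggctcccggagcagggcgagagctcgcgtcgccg
The LAMA3 window held 2 AP-1 elements and 1 GC box, and the downstream LAMB3 window held 1 AP-1 element and 1 GC box. An AP-1 element was found in 7.71% of 35116 RefSeq promoter windows of the same length and a GC box in 45% of them. Further motifs were searched and had no match in any laminin window at hand. These were the hypoxia element core ACGTG (in 21.4% of all windows), the E-box CACGTG (7.26%) and the TATA box TATAAA (11.5%). Another LAMB3 window, at 209652280-209652579 and overlapping the upstream one, is not printed and held 1 GC box and no AP-1 element. No AP-1 element was in the windows of LAMB2, of LAMB1 or of the upstream LAMB3 start, and the LAMB1 window held 4 GC boxes, 2 of which overlap. A match is a run of letters and not a binding measurement, and counts per gene do not show which start was used. Windows were also at hand for LAMA4 (no match to either motif), LAMA5 (5 GC boxes) and LAMC1 (3 GC boxes); that of LAMA1 was not analysed here.

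LAMA3 (ENSG00000053747) and LAMA1 (ENSG00000101680) lie on chromosome 18, at 23689443-23956222 on the plus strand and 6941744-7117814 on the minus strand of GRCh38. LAMB3 (ENSG00000196878, 209614870-209652466, minus strand) and LAMC1 (ENSG00000135862, 183023460-183145592, plus strand) lie on chromosome 1. LAMA4 (ENSG00000112769) is on chromosome 6 at 112108760-112254939, LAMA5 (ENSG00000130702) on chromosome 20 at 62307955-62367312, LAMB1 (ENSG00000091136) on chromosome 7 at 107923799-108003255 and LAMB2 (ENSG00000172037) on chromosome 3 at 49121114-49133118, all on the minus strand. Counts covered all annotated exons of each gene. The setting used to count strands was not given, and LAMA1 shares 10.3% of its exonic bases with the antisense gene AP002409.1, so that LAMA1 is the member whose reads are least certain to be its own. Every other member shared at most 2.72% of its exonic bases with any gene.

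The libraries were epithelial by the markers examined. All 8 epithelial markers (such as EPCAM, KRT20 and CDX2) were above 3 counts in every library. They summed to 3065 to 17996 CPM (counts scaled per 1000000 reads after TMM normalization). The sums were 0.341 to 22.1 CPM for 6 fibroblast markers and 0.0299 to 3.19 CPM for 4 endothelial markers. Single epithelial markers were low in some groups. KRT20 stood at 0.646 CPM in HCT116 2D and 0.817 CPM in LS174T 2D, and CDX2 at 1.43 CPM in HT29 2D. VIL1 stood at 0.223 CPM in HCT116 2D and 0.209 CPM in HCT116 3D. The largest fibroblast sums were in HCT116, the line with LAMA4, at 10.2 to 22.1 CPM. They came almost wholly from COL1A1, at 14.1 ± 0.95 CPM in 2D and 16.0 ± 5.95 CPM in 3D. COL1A2, DCN and LUM had no read in HCT116, and COL3A1 had 3 reads, all in 3D. PDGFRB stood there at 0.246 CPM in 2D and 0.320 CPM in 3D. Of 4 immune markers, only CD68 was above 3 counts in every library of a group, while CD3E had no read and PTPRC and MS4A1 had at most 2 reads in any group. The 4 summed to 2.08 to 20.5 CPM in 2D and 5.04 to 91.8 CPM in 3D. CD68, a lysosomal membrane protein used as a macrophage marker, was higher in 3D in all 4 lines, with log2 fold changes of 0.92 in LS174T, 1.17 in HT29, 1.92 in HCT116 and 2.01 in LS513 (largest edgeR adjusted p = 0.00416). Its part in the laminin differences was not tested. LS174T 3D replicate 2 was the library farthest from the others of its group, at 0.551 on the log2 scale (root mean square over genes; 0.297 to 0.489 for the other libraries). Nothing in the sources says that the libraries of a group came from separate cultures, so the p-values measure the spread between libraries, which may be partly technical, and in bulk RNA a change in the mix of cells and a change in RNA per cell cannot be told apart.

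**Figure D1:**
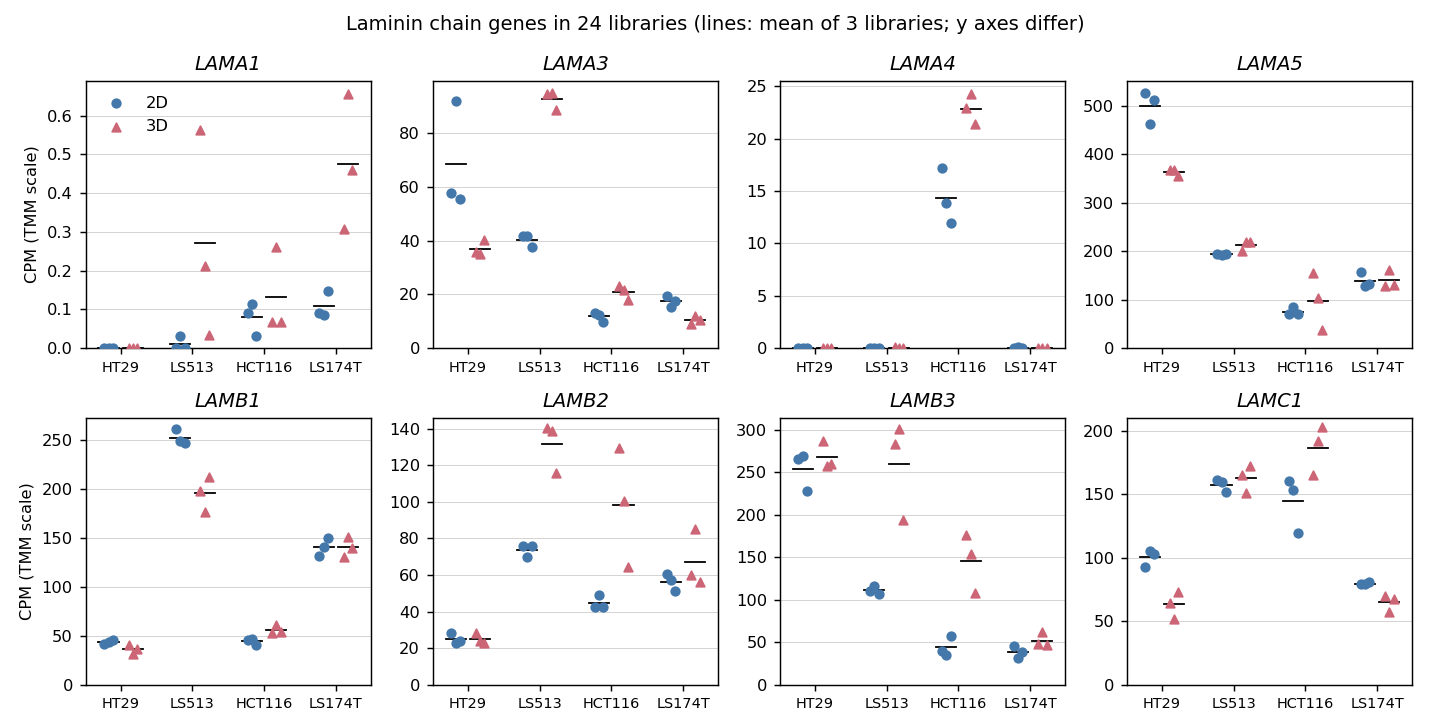
CPM on the TMM scale (y axis, linear and different in each panel) of the 8 laminin genes in the 24 libraries, by line (x axis), with circles for 2D, triangles for 3D and a black line at the mean of 3 libraries. The 3D libraries of LAMA3 lie below the 2D libraries in HT29 and LS174T and above them in LS513 and HCT116.

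Among the alpha chains, LAMA5 was the most abundant per length in all 8 groups. Its mean level was 35.0 ± 2.40 CPM per kb of exon in HT29 2D (SD, n = 3), above 91.9% of 19322 tested genes with a known length, and its lowest was 5.24 ± 0.54 CPM per kb in HCT116 2D, above 63.3% of them. Shares of the alpha chain are over LAMA1 to LAMA5 and so include LAMA2, which is not among the 8 genes. LAMA5 held 87.9% ± 3.91 of the alpha chain CPM per kb in HT29 2D and 90.7% ± 0.85 in HT29 3D. Its share was 82.5% ± 0.75 in LS513 2D and 69.5% ± 1.71 in LS513 3D, with every 3D library below every 2D library. LAMA3 held 16.8% ± 0.86 in LS513 2D and 29.6% ± 1.58 in LS513 3D, in the opposite direction. In LS174T the share of LAMA3 was 8.31% ± 0.43 in 2D and 5.14% ± 0.35 in 3D, again without overlap, and LAMA2 was the next alpha chain gene after LAMA5, at 23.5% ± 1.81 and 23.97% ± 2.07. In HCT116 LAMA5 held 61.5% ± 2.97 in 2D and 51.6% ± 18.0 in 3D, the lowest mean shares of the panel. The rest was divided there between LAMA4 with 14.5% ± 2.596 and 17.1% ± 5.31, LAMA2 with 14.5% ± 1.597 and 19.1% ± 10.1, and LAMA3 with 9.42% ± 1.14 and 12.1% ± 2.72. Shares rest on the length of all annotated exons and are a description, since 3 libraries against 3 cannot give an exact permutation p below 0.10.

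LAMB3 was the largest beta chain gene in HT29, with 85.8% ± 1.31 of the beta chain CPM per kb in 2D and 87.6% ± 0.55 in 3D. In LS513 the order of the beta chains turned over between the growth conditions. LAMB1 led there in 2D with 47.3% ± 0.77 against 36.3% ± 1.42 for LAMB3, and LAMB3 led in 3D with 55.7% ± 5.92 against 24.8% ± 5.47 for LAMB1. HCT116 showed the same direction, LAMB3 holding 43.7% ± 7.79 in 2D and 59.5% ± 0.30 in 3D while LAMB1 went from 25.8% ± 3.84 to 13.6% ± 3.25. In LS174T LAMB1 held the largest share in both conditions, 51.2% ± 4.15 in 2D and 45.5% ± 3.33 in 3D. LAMB2, the beta chain of synapses, kidney and muscle as well as of epithelia, held between 5.56% (HT29 3D) and 30.5% (HCT116 2D).

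**Figure D2:**
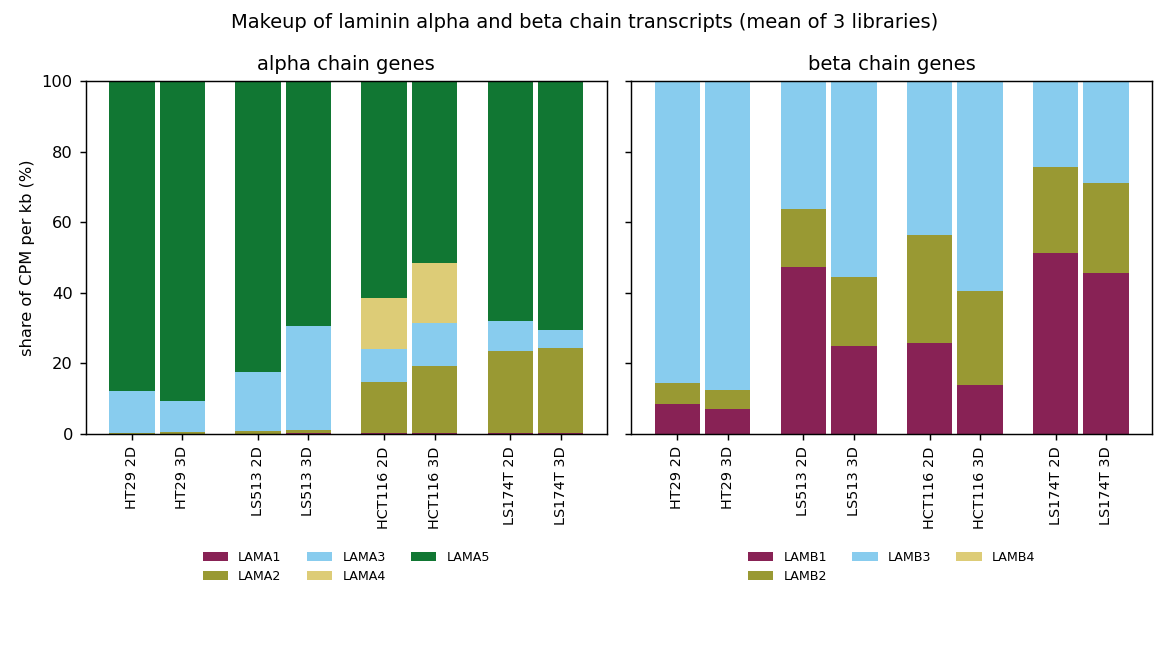
Stacked bars of the share (y axis, %) of alpha and beta chain transcripts, as CPM per kb of exon, held by each laminin gene in each line and growth condition (x axis), as means of 3 libraries. LAMA5 is the largest alpha chain gene in all 8 groups, and the largest beta chain gene in LS513 is LAMB1 in 2D (47.3%) and LAMB3 in 3D (55.7%).

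The comparison of 3D with 2D growth asks how each line expressed laminins when grown in 3 dimensions. Of the 8 genes, 3 were called in HT29 at an adjusted p under 0.05 (edgeR's quasi-likelihood test, Benjamini-Hochberg over all genes), all of them lower in 3D, where 40.7% of all tested genes were called, 21.1% as higher and 19.6% as lower. The HT29 call of LAMB1 was near the threshold and was lost in most alternative fits. In LS513 5 were called, 4 higher and 1 lower, against a background of 23.6% in either direction, 13.7% higher and 9.9% lower. In HCT116 6 were called, all higher, against 29.1% in either direction, 16.8% higher and 12.3% lower. In LS174T 2 were called, 1 higher and 1 lower, against 22.2% in either direction, 13.1% higher and 9.15% lower; the higher gene, LAMA1, lost its call without LS174T 2D replicate 1, 2 or 3 or LS174T 3D replicate 2. The median log2 fold change over the 8 genes was -0.12 in HT29, 1.02 in LS513 (0.71 with LAMA4, which had no read in 2D, set to its bound from 3 counts), 0.68 in HCT116 and 0.00 in LS174T. Over all tested genes the median was between 0.00 and 0.02. The medians of the 8 genes count members with almost no reads. In HT29 these were LAMA1 (no read) and LAMA4 (1 read, in 3D, log2 fold change 1.89). The LS513 median counts LAMA1 at 4.24, from 1 read in 2D and 23 in 3D. LAMA1 also had few reads in HCT116 and LS174T, and LAMA4 in LS174T. The call in HCT116 included 3 genes near the threshold, LAMA4, LAMB1 and LAMC1: 3 genes were called without HCT116 2D replicate 3 and 3 without HCT116 3D replicate 2. No laminin gene was called in the same direction in all 4 lines, which 3.14% of tested genes were as higher and 2.46% as lower.

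LAMA3 encodes the alpha chain of the hemidesmosomal laminin and was the member whose libraries separated by growth condition in every line. In HT29 it measured 57.8, 91.8 and 55.3 CPM in 2D and 35.6, 35.1 and 40.2 CPM in 3D. All 3D libraries were lower, and LAMA3 fell by 0.89 on the log2 scale (SE 0.16, adjusted p = 1.11e-04). One 2D library, replicate 2 at 91.8 CPM, stood above the others, and without it the log2 fold change was -0.58 (adjusted p = 0.00275). In LS513 LAMA3 measured 41.7, 41.6 and 37.6 CPM in 2D and 94.6, 95.1 and 88.5 CPM in 3D. All 3D libraries lay above all 2D libraries, a 2.30-fold rise (log2 1.20, SE 0.16, adjusted p = 5.80e-06). In HCT116 the values were 13.2, 12.4 and 9.75 CPM in 2D and 23.1, 21.8 and 18.0 CPM in 3D, a 1.78-fold rise (log2 0.83, SE 0.16, adjusted p = 5.48e-04). In LS174T they were 19.3, 15.4 and 17.5 CPM in 2D and 8.92, 12.1 and 10.3 CPM in 3D, so that LAMA3 fell by 0.74 on the log2 scale (SE 0.16, adjusted p = 0.00293). These 4 calls held in every alternative fit tried at the same threshold. The unequal fold cutoffs with which the study counted affected genes (log2 under -0.5 or over 1.5) kept those in HT29 and LS174T and not those in LS513 and HCT116. For its gene set analysis the study took an upper cutoff of 1, which the LAMA3 change exceeds in LS513 (1.20) and not in HCT116 (0.83).

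LAMA5, the alpha chain of the common epithelial laminins, was not called in any line. Its 3D libraries were all lower in HT29, at 367, 366 and 354 CPM against 526, 461 and 512 CPM in 2D, with a log2 fold change of -0.46 (SE 0.26, 95% confidence interval -1.01 to 0.09, adjusted p = 0.173). In HCT116 LAMA5 measured 70.3, 83.8 and 70.5 CPM in 2D and 155, 102 and 36.7 CPM in 3D. HCT116 3D replicate 3 was thus below every 2D library of the line while the other 3D libraries were above all of them. The log2 fold change in HCT116 was 0.39 (adjusted p = 0.298) with all libraries and 0.76 (adjusted p = 2.42e-04) without HCT116 3D replicate 3. Without that library LAMA5 also passed the threshold in HT29 (log2 fold change -0.43, adjusted p = 0.00751). With every gene of at least 1 count kept in the fit, LAMA5 passed in both HT29 (adjusted p = 0.00201) and HCT116 (0.0165), and with the libraries of HT29 alone it passed there (5.31e-04). HCT116 3D replicate 3 was also the lowest of its group for LAMA3, LAMA4, LAMB2, LAMB3 and, among the partner genes, for the integrin gene ITGB4. For LAMC1 it was the highest of its group (203 CPM), and for LAMB1 it lay between the others (53.8 CPM). LAMB2 and LAMB3 stayed called in HCT116 with any single library left out (log2 fold changes of 0.86 to 1.34 and 1.54 to 1.92). In LS513 LAMA5 measured 194, 192 and 193 CPM in 2D and 199.5, 218 and 218 CPM in 3D (log2 fold change 0.13, interval -0.42 to 0.69), and in LS174T the log2 fold change was 0.01 (interval -0.54 to 0.56).

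LAMA4 was an HCT116 gene in this panel. It measured 17.2, 13.8 and 12.0 CPM in HCT116 2D and 22.9, 24.3 and 21.4 CPM in HCT116 3D, and no library of another line had more than 4 reads of it. All 3D libraries of HCT116 were above all 2D libraries, and LAMA4 rose 1.60-fold (log2 0.67, SE 0.24, adjusted p = 0.0437). The call was near the threshold: leaving out single libraries gave adjusted p of 0.0290 to 0.155 with log2 fold changes of 0.53 to 0.82. LAMA1 stayed under 0.7 CPM in every library and had no read in any HT29 library. LS174T held 11 LAMA1 reads in 2D and 43 in 3D (log2 fold change 2.08, SE 0.66, adjusted p = 0.0294), with 3 to 5 reads in each 2D library and 10 to 18 in each 3D library. LS513 held 1 LAMA1 read in 2D and 23 in 3D, 16 of them in 1 library, a ratio of 23.5 with an exact interval for counting error of 3.81 to 967 (adjusted p = 0.00811, and 0.0878 without LS513 3D replicate 1). In HCT116 there were 8 LAMA1 reads in 2D and 12 in 3D, a ratio of 1.52 (exact interval 0.573 to 4.30). At this depth a gene with 3 reads in a library stands at 0.0875 to 0.160 CPM, so the LAMA1 values lie near the limit of detection.

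LAMB3, the beta chain that partners the alpha 3 chain, had the largest rise of the members above 1 CPM. In HCT116 it measured 40.2, 35.5 and 57.7 CPM in 2D and 176, 153 and 109 CPM in 3D, with no overlap between the groups. LAMB3 rose 3.29-fold there (log2 1.72, SE 0.19, adjusted p = 5.15e-07). In LS513 it measured 110.1, 116 and 107 CPM in 2D and 284, 301 and 194 CPM in 3D and rose 2.33-fold (log2 1.22, SE 0.18, adjusted p = 3.78e-05), the third 3D library lying between the 2D libraries and the other 3D libraries. In HT29 LAMB3 was already high in 2D, at 266, 269 and 228 CPM, and measured 287, 258 and 259 CPM in 3D. The HT29 groups overlapped, with a log2 fold change of 0.07 (interval -0.30 to 0.45). In LS174T LAMB3 measured 46.0, 31.8 and 39.0 CPM in 2D and 47.8, 61.7 and 46.4 CPM in 3D, and its log2 fold change of 0.42 (SE 0.19) missed the threshold (adjusted p = 0.110; 0.00529 with every gene of at least 1 count kept).

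LAMB2 also rose in LS513 and HCT116. It measured 76.0, 69.6 and 76.0 CPM in LS513 2D and 140.1, 139 and 116 CPM in LS513 3D, a 1.78-fold rise (log2 0.83, SE 0.18, adjusted p = 0.00131). In HCT116 it measured 42.6, 48.9 and 42.7 CPM in 2D and 129, 100.4 and 64.4 CPM in 3D, a 2.19-fold rise (log2 1.13, SE 0.18, adjusted p = 5.79e-05). The groups did not overlap in either line, although the 3D libraries of HCT116 ran from 64.4 to 129 CPM. HT29 held the lowest LAMB2 level of the panel in both conditions, 28.2, 22.9 and 23.7 CPM in 2D and 28.1, 23.96 and 22.8 CPM in 3D (log2 fold change -0.00, interval -0.38 to 0.38). In LS174T LAMB2 had a log2 fold change of 0.25 (interval -0.11 to 0.62), with LS174T 3D replicate 2 at 85.3 CPM and all other libraries of the line between 51.1 and 60.6 CPM.

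LAMB1, the beta chain of the classical laminins, made smaller changes and in different directions. LS513 held the highest level, 261, 249 and 246 CPM in 2D and 198, 176 and 213 CPM in 3D. Its 3D libraries were all lower, and LAMB1 fell by 0.37 on the log2 scale (SE 0.09, adjusted p = 0.00651; 0.0591 without LS513 3D replicate 2). In HCT116 LAMB1 measured 45.9, 47.2 and 40.9 CPM in 2D and 53.3, 60.9 and 53.8 CPM in 3D and rose 1.25-fold (log2 0.33, SE 0.10, adjusted p = 0.0140). In HT29 it measured 41.3, 43.3 and 45.6 CPM in 2D and 40.8, 31.7 and 37.1 CPM in 3D. A fall of 0.25 on the log2 scale (SE 0.10) just passed the threshold there (edgeR adjusted p = 0.0479). It did not pass with single libraries left out in most cases (0.0332 to 0.447) or with a replicate block (0.147). Nor did it pass with DESeq2 size factors (0.0927), every gene of at least 1 count kept (0.312) or HT29 alone (0.0699). The DESeq2 test gave an adjusted p of 0.0857, and edgeR gave 0.0563 with 1 technical replicate letter left out. In LS174T the log2 fold change was -0.00 (interval -0.20 to 0.20), the groups lying on top of each other at 132 to 149.9 CPM in 2D and 131 to 151 CPM in 3D.

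LAMC1, the gamma chain shared by most laminins, was lower in HT29 3D. It measured 92.9, 105 and 103 CPM in HT29 2D and 64.7, 52.2 and 73.5 CPM in HT29 3D, all 3D libraries being lower, and fell by 0.66 on the log2 scale (SE 0.12, adjusted p = 1.28e-04). In HCT116 it measured 160.2, 154 and 119 CPM in 2D and 165, 192 and 203 CPM in 3D and rose 1.29-fold (log2 0.37, SE 0.12, adjusted p = 0.0198; 0.0170 to 0.173 with single libraries left out). In LS174T all 3D libraries were below all 2D libraries, at 70.1, 57.2 and 67.5 CPM against 79.7, 79.1 and 80.6 CPM, but the log2 fold change of -0.30 (SE 0.12) missed the threshold (adjusted p = 0.0729). In LS513 the log2 fold change was 0.05 (interval -0.19 to 0.29).

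**Figure D3:**
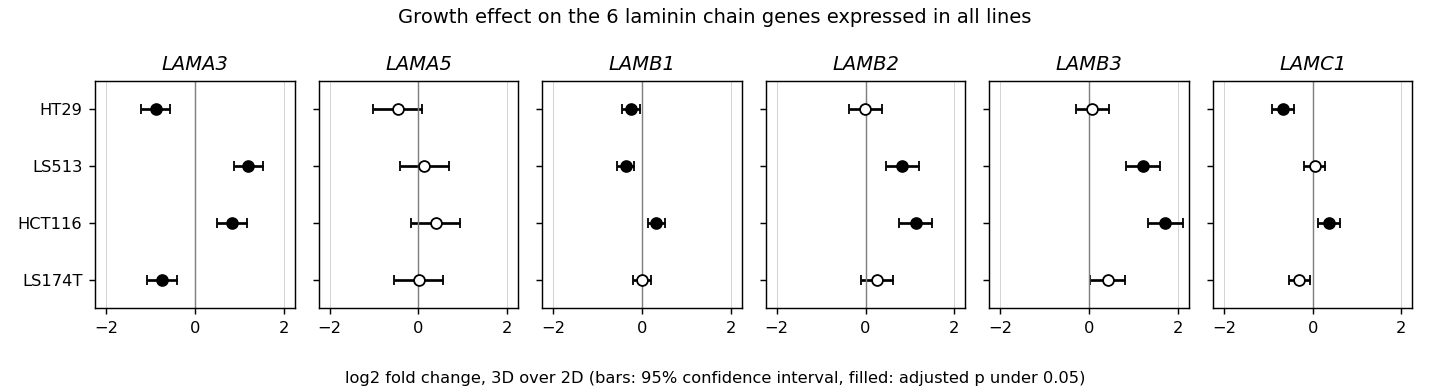
Log2 fold change of 3D over 2D (x axis) with its 95% confidence interval for the 6 laminin genes expressed in all lines, by line (y axis), filled where the adjusted p was under 0.05. LAMA3 runs from -0.89 in HT29 to 1.20 in LS513, and LAMB3 from 0.07 in HT29 to 1.72 in HCT116.

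Whether the growth effect itself differed between the lines was tested with an interaction term. It did for 5 of the 8 genes, LAMA3 (adjusted p = 2.81e-07), LAMB3 (2.00e-04), LAMC1 (4.62e-04), LAMB1 (0.00307) and LAMB2 (0.00690), where 17.1% of all tested genes passed. Between pairs of lines, 5 laminin genes differed between HT29 and HCT116 (background 7.76%), 4 between HT29 and LS513 (12.1%) and 4 between HCT116 and LS174T (4.75%). One gene each differed between LS513 and HCT116 (LAMB1, 1 of 8, background 4.34%) and between LS513 and LS174T (LAMA3, 1 of 8, background 3.62%). HT29 and LS174T differed in 0 of the 8 by edgeR's adjusted p (background 6.65%) and in 0 by DESeq2, which gave no adjusted p for 1 of them. LAMC1 was the only member with an unadjusted p under 0.05 there (1 of 8, unadjusted p = 0.0380 in edgeR's test). No HT29 library held a read of LAMA1, so no pair with HT29 could show a difference for it. LAMA4 rested on 1 read in HT29 and 5 in LS174T, too few to show a difference between these lines. The 2 lines lowest on LAMA3 in 3D relative to 2D, HT29 and LS174T, differed in this by -0.15 on the log2 scale (interval -0.62 to 0.32). The LAMA3 effect was 2.09 lower in HT29 than in LS513 on the log2 scale, a difference of -2.09 (SE 0.22, adjusted p = 8.46e-07), and that of LAMB3 differed by -1.64 between HT29 and HCT116 (SE 0.26, adjusted p = 1.53e-04). These comparisons share libraries and are not independent of each other.

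Levels of the laminin genes differed in most comparisons of 2 lines in both conditions, as levels did over all tested genes. Of the 48 differences between 2 lines (8 genes, 6 pairs), 35 passed the threshold in 2D, where 64.7% of all such differences did, and 38 passed in 3D, against 65.4%. In 2D, LAMA3 was highest in HT29 (68.3 ± 20.4 CPM), followed by LS513, LS174T and HCT116 (11.8 ± 1.81 CPM), each step past the threshold. In 3D the order was LS513 (92.7 ± 3.65 CPM), HT29, HCT116 and LS174T (10.4 ± 1.58 CPM), again with each step past the threshold. LAMA5 ran from HT29 over LS513 and LS174T to HCT116 in both conditions. Neighbouring levels of LAMA5 did not differ beyond their spread between LS513 and LS174T, nor between LS174T and HCT116 in 3D (adjusted p = 0.0975).

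LAMB3 was highest in HT29 in both conditions, and in 3D its level in LS513 (260 ± 57.2 CPM) was no longer apart from that in HT29 (268 ± 16.5 CPM; log2 difference 0.05, SE 0.18, adjusted p = 0.864). In 2D the same difference was 1.19 (SE 0.18, adjusted p = 5.25e-06). LAMB1 was highest in LS513 and next in LS174T in both conditions, and its mean in LS513 2D was 5.81-fold that in HT29 2D. LAMB2 was highest in LS513 and lowest in HT29, and in 2D neither LS513 and LS174T (adjusted p = 0.0621) nor LS174T and HCT116 (0.0991) differed beyond their spread. Of the 6 genes expressed in all lines, LAMC1 varied least, 1.98-fold between LS513 and LS174T in 2D and 2.94-fold between HCT116 and HT29 in 3D. HCT116 held 14.3 ± 2.63 CPM of LAMA4 in 2D against 0.0478 ± 0.0590 CPM in LS174T, the next line.

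LAMC3, LAMA2 and LAMB4 encode further laminin chains and are not among the 8 genes. LAMC3 was read only in HCT116 above 2 reads per library, at 11.9 ± 0.22 CPM in 2D and 20.2 ± 3.42 CPM in 3D (log2 0.76, adjusted p = 0.0112). LAMA2, the alpha chain of muscle and nerve, rose in HCT116 (log2 0.77, SE 0.15, adjusted p = 5.91e-04) and was highest in LS174T (34.5 ± 0.99 CPM in 2D). LAMB4 had at most 6 reads in a library and was not tested.

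The pattern of each member over the 8 group means was set beside that of all tested genes by the root mean square difference of centred log2 CPM. LAMA4 was most like LAMC3 (0.18) and COL4A5 (0.23), a type IV collagen chain gene, each of them read almost only in HCT116. LAMB1 was most like DSP (0.21), the desmoplakin of desmosomes, and NEMP2-DT (0.24). LAMA3 was most like ENSG00000266088 (0.31), which the reference tables do not name, and PPL (0.32), the periplakin of cell junctions. LAMB3 was its most alike member at 0.59, at rank 105 among all tested genes. LAMB3 was most like MIR4260 (0.08), a microRNA gene within LAMB3 whose annotated exon shares 6 bases with it on the same strand, so that their reads cannot be told apart, and then PPP1R13L (0.36). LAMB2 was most like SNX9 (0.22) and PPM1J (0.23), and LAMA5 like CYP2D7 (0.23) and NIM1K (0.23). LAMC1 was most like PKD1P4 (0.16), which shares sequence with PKD1 and its copies, and CCNK (0.17). Some of these genes had few reads over all 24 libraries: NIM1K 142, NEMP2-DT 235, CYP2D7 518 and ENSG00000266088 524. The nearest genes of LAMA1 were GATM (0.24) and SHBG (0.28), on too few LAMA1 reads to be read further.

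Of 11 laminin receptor genes, 3 were higher and 6 lower in HT29 3D, 3 higher in LS513, 7 higher and 1 lower in HCT116, and 1 higher and 2 lower in LS174T. Over all tested genes, 21.1% were higher and 19.6% lower in HT29, 13.7% and 9.9% in LS513, 16.8% and 12.3% in HCT116, and 13.1% and 9.15% in LS174T, which is the background for this and the following lists. The receptors' median log2 fold changes were -0.32, -0.07, 0.55 and -0.11. BCAM, the receptor for the alpha 5 chain, fell by 1.79 on the log2 scale in HT29 3D (196 ± 34.6 against 56.3 ± 8.50 CPM, adjusted p = 8.85e-08). ITGB4, the integrin beta chain of hemidesmosomes, rose in HCT116 from 128 ± 8.11 to 388 ± 111 CPM (log2 1.60, SE 0.16, adjusted p = 1.03e-07). SDC4, a syndecan, rose in LS513 (log2 0.91, SE 0.09, adjusted p = 6.72e-08). RPSA, a ribosomal protein also called the laminin receptor, was the only receptor gene called higher in all 4 lines, with log2 fold changes of 0.50 in LS513, 0.56 in HCT116, 0.65 in HT29 and 0.81 in LS174T. RPSA has many processed copies in the genome, and reads that map to several places had been removed, so its counts are uncertain.

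Of 5 hemidesmosome genes, 2 were lower in HT29, 1 was higher in LS513, 2 were higher in HCT116 and 0 were called in LS174T by edgeR's adjusted p (3 of 5 at an unadjusted p under 0.05, and 0 by DESeq2's adjusted p). PLEC, the plectin that ties hemidesmosomes to keratin, fell by 0.92 on the log2 scale in HT29 (adjusted p = 4.92e-05), and COL17A1, a transmembrane collagen that binds the hemidesmosomal laminin, rose in HCT116 from 1.90 ± 0.53 to 6.66 ± 2.20 CPM (log2 1.82, SE 0.27, adjusted p = 2.44e-05). CD151, a tetraspanin partner of laminin-binding integrins, rose in LS513 (log2 0.45, SE 0.13, adjusted p = 0.0111). Of 17 other basement membrane genes, 16 were tested, and 1 was higher and 2 lower in HT29, 2 higher in LS513, 5 higher in HCT116, and 1 higher and 2 lower in LS174T. The largest calls at 1 CPM or more were COL18A1 in HT29 (log2 0.62, adjusted p = 0.00523), NTN4 in LS513 (1.11, adjusted p = 0.00216), SPARC in HCT116 (2.69, adjusted p = 3.95e-04, from 0.172 to 1.13 CPM) and COL4A2 in LS174T (-1.01, adjusted p = 3.41e-04). In HT29, 3 of 16 basement membrane genes were thus called in either direction where 40.7% of all genes were, and in HCT116 5 of 16 where 29.1% were. Of 8 genes that process laminin or glycosylate its receptor dystroglycan, 7 were tested, and 2 were higher and 1 lower in HT29, 1 was higher in LS513, 2 were higher in HCT116 and 0 were called in LS174T by edgeR's adjusted p (0 of 7 at an unadjusted p under 0.05, and 0 by DESeq2's adjusted p). MMP14, a membrane protease of the extracellular matrix, rose in HT29 (log2 0.99, SE 0.18, adjusted p = 1.25e-04), LS513 (0.44, SE 0.15, adjusted p = 0.0328) and HCT116 (0.86, SE 0.16, adjusted p = 2.52e-04).

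**Figure D4:**
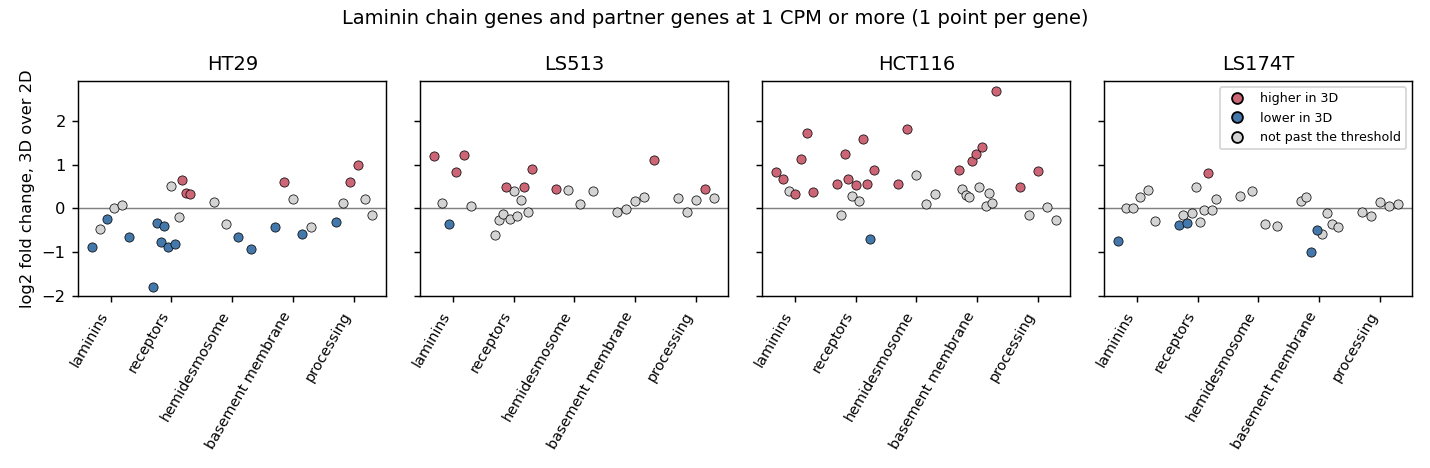
Log2 fold change of 3D over 2D (y axis) for the laminin genes and the genes of 4 partner lists (x axis) with a mean of at least 1 CPM in the higher group, 1 point per gene, in the 4 lines; red points were higher and blue points lower at an adjusted p under 0.05, grey points were not called. HCT116 has 7 laminin points, 6 of them red and 1 grey, and HT29 has 6, of which 3 are blue.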

How the data were processed

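The authors sequenced poly(A) RNA from stranded libraries as 8 technical replicates per library and deposited raw counts per gene; 7 were used here for 1 HT29 3D library and 8 for the others. Per the submitters' processing notes, reads were trimmed with Trim Galore 0.4.1, aligned with STAR and counted with HTSeq 0.5.3; reads that mapped to several places were removed. The study's methods name the Ensembl genome and the notes name hg19; the gene identifiers were matched to GENCODE on GRCh38 for names, lengths and places. The strand setting was not given in the sources used here.

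Counts of the technical replicates were summed, giving 24 libraries of 18723942 to 34277421 counts; no rows without a gene name were found and no pair of libraries was identical. Genes were filtered by edgeR's filterByExpr and scaled by TMM. Growth conditions within lines, lines within conditions and the interaction were tested in 1 quasi-likelihood fit (edgeR 4.0.16, R 4.3.3) over all 24 libraries with 1 coefficient per group, adjusted by Benjamini-Hochberg over 19387 genes; the fit was tested on simulated data. CPM are counts per 1000000 on the TMM scale, and CPM per kb divide by exonic length. Ratios with intervals are exact for counting error only. Likeness is the root mean square difference of centred mean log2 CPM (prior count 2) over groups.

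The rule for the 8 genes uses their names and no measured value, but the family and the lists were chosen with earlier results of these data known. Besides the 8 genes and further laminin chains, the text names, from each partner list, the gene with the largest called change per line at 1 CPM or more and genes called the same way in all 4 lines, and for each member the 2 genes most like it. MMP14, CD151, PLEC and COL17A1 come under that rule. Some genes of the lists are not reported here. Alternatives were DESeq2 1.42.0 and its size factors, no filter beyond 1 count per gene, a replicate block, the libraries of 1 line only, the study's unequal fold cutoffs, each library left out, 1 technical replicate letter left out, and the longest transcript as length. Line differences under these alternatives were added after seeing the data. Replicate numbers did not pair the libraries (correlations of deviations from -0.146 to 0.0938), so the block is an alternative only.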

Additional observations from a re-analysis of the deposited data

Results flagged for a closer look

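The growth effect differed between the 4 lines for LAMA3 (interaction adjusted p = 2.81e-07, edgeR), with 3D below 2D in all libraries of HT29 and LS174T and above it in all libraries of LS513 and HCT116. It also differed for LAMB3 (2.00e-04), which rose in LS513 and HCT116, for LAMC1 (4.62e-04), which fell in HT29 and rose in HCT116, for LAMB1 (0.00307), which fell in LS513 and rose in HCT116, and for LAMB2 (0.00690), which rose in LS513 and HCT116. These 5 genes stand here because the lines differed in that test.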

How the results depend on the processing

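The 4 LAMA3 calls, those of LAMB2 and LAMB3 in LS513 and HCT116 and that of LAMC1 in HT29 kept direction and threshold in all alternative fits at an adjusted p under 0.05. Of 952 single-gene values under alternatives, 844 kept direction and side of the threshold, 53 lost the call, 6 gained it and 49 changed sign, none of them called on either side. With the study's cutoffs of log2 under -0.5 or over 1.5, 1 laminin gene was called in LS513 (LAMA1) and 1 in HCT116 (LAMB3), against 5 and 6. The calls of LAMA3 and LAMB2 in both lines and of LAMB3 in LS513 were thus lost, and the cause is the higher cutoff. The study's gene set analysis took an upper cutoff of 1. LAMA3 (1.20) and LAMB3 (1.22) in LS513 and LAMB2 in HCT116 (1.13) exceed it, while LAMB2 in LS513 (0.83) and LAMA3 in HCT116 (0.83) do not. Leaving out single libraries gave 3 to 6 calls in HCT116 and 1 to 2 in LS174T. Sign changed with single libraries left out for LAMA1 in HCT116 (-0.28 to 1.04), LAMA5 in HCT116 (-0.13 to 0.76) and LS174T (-0.10 to 0.10), LAMB1 in LS174T (-0.0481 to 0.0482) and LAMB2 in HT29 (-0.0660 to 0.149). For LAMB1 in LS174T it also changed with DESeq2 size factors (0.00707), all genes with at least 1 count (3.02e-04), the DESeq2 test (0.00695) and 1 technical replicate letter left out (0.00158). For LAMB2 in HT29 it changed with size factors (0.0362), all genes (0.0432), the replicate block (0.00345), the DESeq2 test (0.0364) and the line alone (0.00717). The cause was not tested. LAMA5 passed with all genes kept in HT29 (adjusted p = 0.00201) and HCT116 (0.0165), as did LAMB3 in LS174T (0.00529); LAMA5 also passed with HT29 alone (5.31e-04). DESeq2 gave no adjusted p for LAMA1 in LS174T. The replicate block changed 1 call, that of LAMB1 in HT29 (adjusted p = 0.147), which most other alternative fits lost as well. With the longest transcript as length, 29 of 56 shares moved by over 1 SD, and the leading alpha and beta chain genes were the same in 8 of 8 groups.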
